A study of Mus musculus with 8 samples.

Results

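The libraries compared here were 5 of the 8 in the series: 3 mouse thymic lymphomas whose labels give a deletion of ΔNp63, set against 2 control lymphomas. These 5 were chosen by the genotype and virus labels alone, with no use of measured values. Leaving out ΔNp63-labelled replicate 2 in part of the tests, however, rested on its measured values. The control tumours carry the genotype ΔNfl/fl;p53-/- and received Ad-mCherry, an adenovirus that brings only a red fluorescent protein. The ΔNp63-labelled tumours carry ΔNp63Δ/Δ;p53-/- and received Ad-CRE-mCherry, which also brings Cre, the recombinase that cuts out floxed DNA. All 5 tumours came from C57BL/6 mice aged 10 weeks and labelled p53-/-, the virus went straight into the lymphoma, and tissue was taken 48 h later. The remaining 3 libraries were labelled ΔNp73Δ/Δ;p53-/- and given the same Cre virus. They were used only to share the estimate of spread and to show where the ΔNp63-labelled group differed from them or moved with them.

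The design sets limits on what these tumours model. The control label does not say which ΔN allele was floxed, and the controls differ from the ΔNp63-labelled tumours in virus as well as genotype, so Cre, deletion and genotype cannot be told apart. RNA came from whole tumour pieces with infected and uninfected cells together, and fewer cells of a type and less RNA per cell cannot be told apart in such bulk samples. The labels do not say that libraries came from separate animals, and the p-values speak only to the spread among the samples at hand, which may be technical.

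Trp63 encodes p63, a transcription factor of the p53 family that is best known for keeping the stem cells of stratified epithelia. One promoter gives the TA forms, which carry a domain that activates transcription, and a downstream promoter gives the ΔN forms, which lack it and can oppose p53, TAp63 and TAp73. Thymic lymphoma is the usual tumour of mice without p53 and arises from developing T cells, the thymocytes. Such tumours also hold macrophages, fibroblasts, vessels and thymic epithelium, each with its own RNA.

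Expression was given as FPKM, reads scaled by transcript length and library size, after quantile normalisation, which gives every library nearly the same distribution of values. Sequencing depth is unknown, and between 11962 and 12190 genes reached 1 FPKM in a library. ΔNp63-labelled replicate 2 stood apart, with a median Pearson correlation of 0.848 with the other libraries across genes, against 0.915 to 0.957 for the others. Calls are therefore counted with and without it, and its own value is printed beside most of the genes named. Genes of the Y chromosome were another difference between libraries: their summed level was 55.3 FPKM in control 1 and 57.1 in ΔNp73-labelled replicate 1 and at most 0.0692 in the other 6, and the part of sex in the results was not tested. Markers of fat cells also varied inside the groups, with a summed level of 429 and 1869 FPKM in the controls and of 2727, 325 and 1905 in ΔNp63-labelled replicates 1, 2 and 3.

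The targeted gene did not separate the groups. Trp63 had 4 transcript entries, and each belongs to a transcript that starts at the ΔN promoter. The highest of them, NM_011641, read 5.21 and 3.38 FPKM in the controls and 6.57, 1.05 and 9.91 FPKM in ΔNp63-labelled replicates 1, 2 and 3. Replicate 2 lay below both controls in this Trp63 entry and replicates 1 and 3 above them. The second Trp63 entry, NM_001127264, read 3.44 and 7.37 FPKM in the controls and 3.72, 0.777 and 5.91 FPKM in the 3 libraries. NM_001127263 read 4.53 and 3.71 FPKM in the controls and 2.60, 0.0394 and 3.98 in the 3 libraries. NM_001127265 read 1.69 and 0.0097 FPKM against 1.36, 0.549 and 0.000168. Whether replicates 1 and 3 lay above the controls thus depended on the entry. A value per transcript pools reads of the exons that TA and ΔN forms share, so it cannot show the state of the ΔN exon alone, and the deletion in replicates 1 and 3 was not visible. The direction of every difference below rests on the labels. Trp53 values were 81.0 and 67.6 FPKM for the controls against 17.3, 16.1 and 46.3 FPKM for the ΔNp63-labelled libraries, a difference that missed the threshold (adjusted p = 0.305 without replicate 2). Trp53 transcripts were thus read in every library although the labels give p53-/-, and a value per transcript does not show whether the gene is functional. Trp73 was not analysed here.

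A gene was called changed where limma's adjusted p (Benjamini-Hochberg over all genes tested) was under 0.05. All log2 differences below are ΔNp63-labelled minus control on the log2(FPKM + 1) scale, given ± SE, and they understate the change of low genes. With all libraries, 12 of 12921 genes passed (0.0929%), 4 higher (0.031%) and 8 lower (0.0619%), while 1678 had an unadjusted p under 0.05 (13%). Without replicate 2, 2882 of 12782 passed (22.5%), 1497 higher (11.7%) and 1385 lower (10.8%). In the text below, "rose" and "fell" refer to this second set, which compares replicates 1 and 3 with the 2 controls. Replicate 2 was left out of it because its values stood apart, and the same values were then tested. The adjusted p-values of this set therefore hold only given that choice. For every list below, 11.7% higher and 10.8% lower are the shares over all genes to compare with. No gene described below, apart from the 12, passed with all libraries. For most groups with no count of their own below, the number with an unadjusted p under 0.05 is given here. With all libraries it was 7 higher of 35 MHC class I genes (1 called, H2-T10), 1 higher of 13 MHC class II genes, 21 higher of 39 macrophage genes and 11 higher and 1 lower of 37 fibroblast genes. It was 1 higher and 10 lower of 56 thymocyte genes, 3 higher and 4 lower of 37 apoptosis genes, 12 higher of 24 senescence secretion genes and 0 of 22 epithelial genes. For 25 inflammasome genes it was 7 higher, for 26 leukotriene and prostaglandin genes 4 higher (1 called), and for 7 oxidase subunits 3 higher. For 61 replication-dependent histones it was 9 lower (1 called). For 22 Notch genes it was 1 higher and 2 lower, and for 33 p53 family targets 1 higher and 2 lower. Leaving out control 1 as well left 810 calls and leaving out control 2 left 993, so that the count depends on both controls. Leaving out ΔNp63-labelled replicate 1 as well left 983, and replicate 3 left 1846.

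Replicate 2 did not follow its group in most of these genes. Of the 1497 genes that rose, it lay above both controls in 613 (40.9%), between them in 146 (9.75%) and below both in 738 (49.3%). Of the 1385 that fell, it lay below both controls in 590 (42.6%) and above both in 692 (50%). The median log2 difference of the risen genes was 0.85 in replicates 1 and 3 and -0.06 in replicate 2, and that of the fallen genes was -0.71 against 0.06. The plot of replicate 2 against the other 2 libraries shows which genes these were. Pbk, a kinase of dividing cells, read 56.0 and 51.4 FPKM in the controls, 7.75 and 7.29 in replicates 1 and 3, and 90.3 in replicate 2. Ms4a4c, a membrane protein of myeloid and lymphoid cells, read 4.83 and 5.87 FPKM in the controls, 58.1 and 61.6 in replicates 1 and 3, and 3.81 in replicate 2. Cdkn2a, which encodes the cell cycle inhibitor p16INK4A and p19ARF, was the reverse case: it read 143 FPKM in replicate 2 and between 0.179 and 1.19 FPKM in the controls and in replicates 1 and 3.

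**Figure D1:**
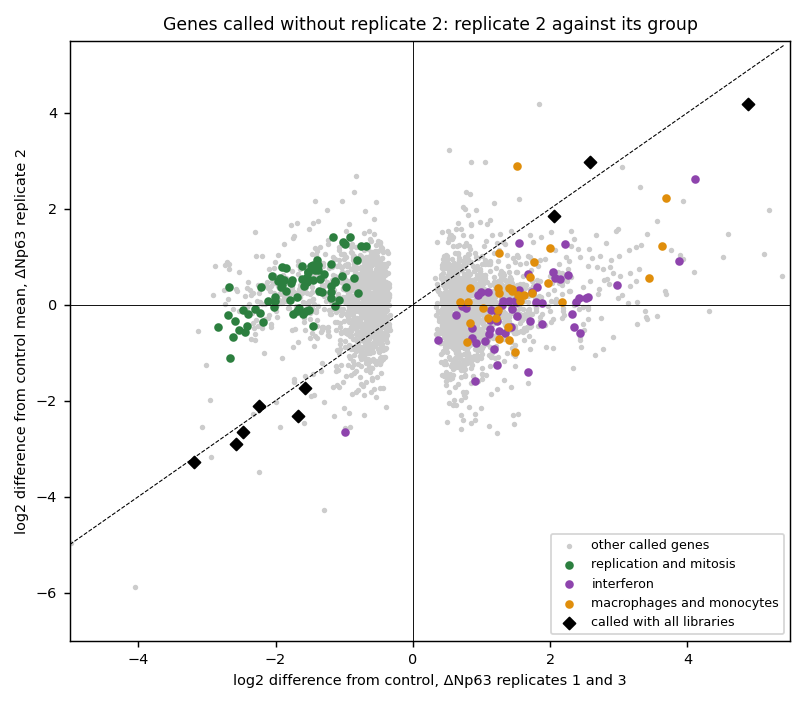
Each point is a gene called without ΔNp63-labelled replicate 2: the x axis gives its log2 difference from the controls in replicates 1 and 3, and the y axis the difference of replicate 2 from the control mean, both as log2(FPKM + 1). The dashed line marks equal values. The replication and mitosis genes drawn (green) lie left of 0 on the x axis and on both sides of 0 on the y axis, since replicate 2 lay above both controls in 32 of 39 replication and 22 of 38 mitosis genes. The genes called with all libraries (black diamonds, small RNAs not drawn) lie near the line. That call itself favours genes in which replicate 2 matches replicates 1 and 3.

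The genes called with all libraries were few, and in the entries used the levels of several were close to all or none. H2-T10, a non-classical MHC class I gene of the H2-T region, read 0.469 and 0.126 FPKM in the controls and 33.5, 22.5 and 41.1 in the ΔNp63-labelled libraries (log2 difference 4.66 ± 0.26, adjusted p = 0.000802 with all libraries). Ugt8a, the enzyme that makes galactosylceramide for myelin, read 0.0638 and 0.0283 FPKM in the controls and 5.25, 7.18 and 5.27 in the 3 libraries (2.71 ± 0.17, adjusted p = 0.00148). Neither gene's groups overlapped, and replicate 2 was the lowest of its group in H2-T10 and the highest in Ugt8a. The H2-T genes are near copies of each other, so how reads were divided between H2-T10 and its neighbours is uncertain. A second H2-T10 entry, NR_046286, which RefSeq lists as a transcribed pseudogene, was not near absent in the controls. It read 9.22 and 6.54 FPKM there and 33.9, 11.1 and 41.0 in ΔNp63-labelled replicates 1, 2 and 3.

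Trim12a, a ring-finger protein of a rodent-specific group related to the antiviral factor TRIM5, went the other way. It read 10.9 and 10.5 FPKM in the controls and 0.346, 0.200 and 0.226 in the ΔNp63-labelled libraries (-3.22 ± 0.16, adjusted p = 0.000394 with all libraries). Synpr, a synaptic vesicle protein, read 8.31 and 6.73 FPKM against 0.182, 0.129 and 0.717 (-2.69 ± 0.25, adjusted p = 0.019). Gfra1, the GDNF receptor subunit, read 8.47 and 4.2 FPKM against 0.192, 0.109 and 0.341 (-2.54 ± 0.29, adjusted p = 0.0459). In each of these 3 genes every ΔNp63-labelled library lay far below both controls. Trim12a has a close copy, Trim12c, which read 18.5 and 21.6 FPKM in the controls and 13.0, 6.80 and 15.4 in the ΔNp63-labelled libraries. The Trim12c entry used here fell without replicate 2 (-0.47 ± 0.13, adjusted p = 0.043), while the sum over the entries of Trim12c rose (0.40, adjusted p = 0.0486), so its direction depends on which entry is read, and leaving out any control or ΔNp63-labelled library as well ended the call.

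The other 7 genes called with all libraries had smaller or less certain differences. Alox5ap, which hands arachidonic acid to 5-lipoxygenase, read 14.4 and 12.6 FPKM in the controls and 63.6, 50.8 and 54.6 in the ΔNp63-labelled libraries (1.98 ± 0.20, adjusted p = 0.0233). Aqp11, an intracellular water channel, read 55.5 and 58.6 FPKM against 11.5, 12.5 and 11.1 (-2.19 ± 0.22, adjusted p = 0.0233). Lynx1, a modulator of nicotinic receptors from the Ly6 family, read 6.18 and 6.08 FPKM against 1.14, 0.428 and 1.32 (-1.89 ± 0.22, adjusted p = 0.0459). In all 3 genes replicate 2 was on the side of its group. Hist2h2be, an H2B histone, read 9.57 and 12.2 FPKM against 3.08, 2.53 and 2.85 (-1.63 ± 0.19, adjusted p = 0.0459). The remaining 3 were small RNAs, whose values in libraries made for longer RNA are uncertain: Rnu12 and Snord15a were lower and Snora65 was higher. Snora65 was listed at 0 in both controls and in the 3 ΔNp73-labelled libraries and at 261, 214 and 424 FPKM in the ΔNp63-labelled ones. Leaving out either control left 3 of the 12 calls, those of H2-T10, Trim12a and Snora65.

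**Figure D2:**
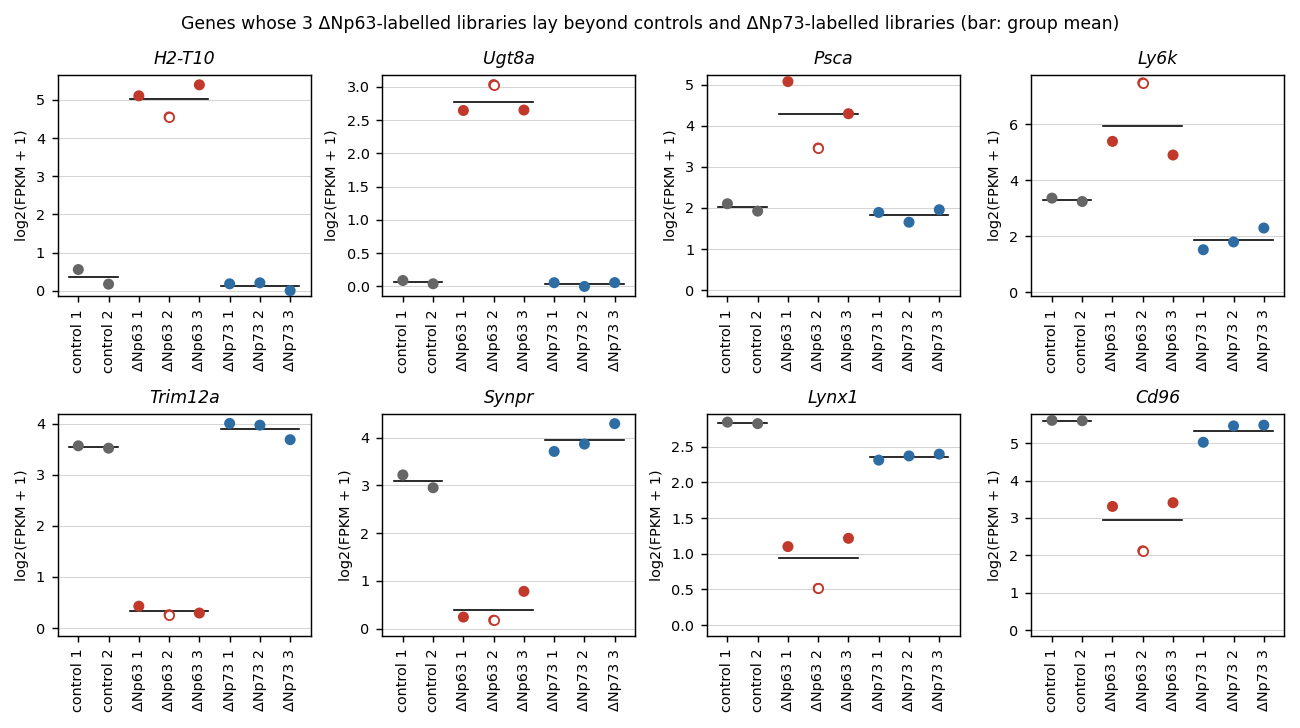
FPKM per library on the log2(FPKM + 1) scale for 8 genes, with controls, ΔNp63-labelled and ΔNp73-labelled libraries side by side, a bar at each group mean, and ΔNp63-labelled replicate 2 as an open circle. H2-T10 (the entry called with all libraries), Ugt8a, Psca and Ly6k were highest and Trim12a, Synpr, Lynx1 and Cd96 lowest in the 3 ΔNp63-labelled libraries.

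Lynx1 lies in a cluster of small Ly6-type surface protein genes, and its neighbours, which were chosen after Lynx1 and Psca had been seen, moved in both directions. The order of the genes was taken from the GRCm38.p6 annotation, since the values were made on another build. Psca, a surface protein of prostate and bladder epithelium, read 3.30 and 2.79 FPKM in the controls and 32.6, 9.98 and 18.6 in the ΔNp63-labelled libraries. Ly6k, best known from testis, read 9.28 and 8.46 FPKM against 40.9, 177 and 28.9. Both rose without replicate 2, Psca by 2.67 (adjusted p = 0.0018) and Ly6k by 1.84 (adjusted p = 0.00476), and replicate 2 was also above both controls in each, but with all libraries neither passed (adjusted p = 0.162 for Psca and 0.236 for Ly6k). Ly6d, a marker of lymphoid precursors and of epithelium, read 438 and 582 FPKM against 222, 25.2 and 191, and fell by 1.29 (adjusted p = 0.0073). Lypd2 read 1.34 and 1.32 FPKM against 4.48, 3.63 and 2.08 and missed the threshold (adjusted p = 0.0811). Around Trim12a, Trim34b read 2.51 and 1.66 FPKM in the controls and 7.05, 2.32 and 7.79 in the ΔNp63-labelled libraries. Trim34b rose by 1.46 (adjusted p = 0.00585) and Trim30a by 1.35 (adjusted p = 0.0167) while Trim12a fell, and Trim34b is a near copy of Trim34a. Trim30a read 21.2 and 24.2 FPKM in the controls and 48.9, 14.7 and 71.5 in ΔNp63-labelled replicates 1, 2 and 3. Replicate 2 was thus below both controls in Trim30a. The call of Ly6d was lost without control 2, and that of Trim30a without either control or replicate 3.

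Several of these genes also set the ΔNp63-labelled libraries apart from the other Cre-treated group. ΔNp73-labelled against ΔNp63-labelled libraries gave 7 called genes of 12921 (0.0542%), 4 higher (0.031%) and 3 lower (0.0232%) in the ΔNp73-labelled group. Without replicate 2 the count was 8 higher (0.0626%) and 11 lower (0.0861%). The H2-T10 entry called with all libraries was read at no more than 0.154 FPKM and Ugt8a at no more than 0.041 FPKM in the ΔNp73-labelled libraries. The second H2-T10 entry was read there at 11.4, 8.83 and 6.61 FPKM. Trim12a was read there at 15.1, 14.7 and 11.9 FPKM and Synpr at 12.1, 13.6 and 18.6. Their differences, ΔNp73-labelled minus ΔNp63-labelled, were -4.89 for H2-T10 (adjusted p = 0.000333), 3.56 for Trim12a (adjusted p = 0.000113) and 3.56 for Synpr (adjusted p = 0.00137), with all libraries. In each of these genes the ΔNp73-labelled libraries lay on the side of the controls. Several other genes called with all libraries were shifted in both Cre-treated groups. In the ΔNp73-labelled libraries Alox5ap read 85.7, 59.3 and 61.3 FPKM, above both controls. Below both controls were Gfra1 at 1.17, 2.19 and 1.31, Aqp11 at 20.4, 21.6 and 33.8 and Hist2h2be at 5.77, 4.06 and 4.16. Snord15a was listed there at 0 in all 3. Lynx1, at 3.97, 4.17 and 4.26, lay between the controls and the ΔNp63-labelled libraries. Rnu12 was above both controls, at 626, 800 and 671.

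Ly6k, Psca, Cd96 and Mtap7, which passed this contrast without replicate 2, also had ΔNp73-labelled libraries on the side of the controls. Ly6k was read at 1.87, 2.47 and 3.90 FPKM in the ΔNp73-labelled libraries (difference -3.28, adjusted p = 0.00484) and Psca at 2.71, 2.15 and 2.88 (-2.85, adjusted p = 0.0064). Cd96, an adhesion receptor of T and natural killer cells, read 47.8 and 47.4 FPKM in the controls, 8.90, 3.35 and 9.60 in the ΔNp63-labelled libraries and 31.5, 43.0 and 43.7 in the ΔNp73-labelled ones. Mtap7, a microtubule-binding protein, read 8.44 and 9.47 FPKM, then 2.01, 0.803 and 2.65, then 7.54, 10.2 and 10.2. In Cd96 and Mtap7 every ΔNp63-labelled library was below every other library. In the interferon, complement, chemokine, macrophage, cell cycle and histone lists described below, limma called 0 members between the ΔNp63-labelled and ΔNp73-labelled groups. Unadjusted p-values under 0.05 were found for 4 of 72 interferon genes, 1 of 21 complement genes, 17 of 49 chemokine genes, 8 of 39 macrophage genes, 18 of 103 cell cycle genes and 10 of 71 histone genes, against 1993 of all 12782. In other lists more members had such p-values: 18 of 37 fibroblast and matrix genes and 11 of 22 epithelial and p63-linked genes, each higher in the ΔNp73-labelled group and none called. Among 35 MHC class I genes the count was 14, with 1 higher in the ΔNp73-labelled group and 2 called, and among 6 TRIM5-like genes it was 4, all higher there and 1 called. Both groups were compared with the same 2 controls, so their differences from control are not independent of each other.

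Interferon-stimulated genes were higher in ΔNp63-labelled replicates 1 and 3, and replicate 2 lay below both controls in 41 of 72 of them, between them in 9 and above both in 22. Type I interferons signal through transcription factors that act at promoters that hold an interferon-stimulated response element. The sensing of foreign or misplaced nucleic acid, in which STING takes part, starts the loop. Of 72 genes tested from a list of 74, 55 rose and 1 fell (76.4% and 1.39%, against 11.7% and 10.8% of all genes), with a median log2 difference of 1.26 against -0.03 over all genes. With all libraries limma called 0 of them, although 18 had an unadjusted p under 0.05 in the higher direction, and the median was 0.76. The summed level was 1252 and 1285 FPKM in the controls and 3805, 930.5 and 3712 in ΔNp63-labelled replicates 1, 2 and 3. It was 4319, 4689 and 3123 FPKM in the ΔNp73-labelled libraries, so the higher level was not particular to the ΔNp63-labelled group. The median was 1.17 in replicate 1, -0.18 in replicate 2 and 1.4 in replicate 3. All 3 ΔNp63-labelled libraries lay above both controls in 20 of the 72, where 12.6% of all genes did so.

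The rise ran through every tier of the pathway. Among 12 sensors, 9 rose. Tmem173, which encodes STING, read 14.7 and 14.5 FPKM in the controls and 42.9, 18.3 and 46.6 in ΔNp63-labelled replicates 1, 2 and 3 (1.55 ± 0.11, adjusted p = 0.0012). Of 13 receptors and transcription factors, 8 rose and 1 fell. Irf7, the factor that amplifies interferon production, read 8.25 and 9.10 FPKM against 55.4, 9.78 and 55.6 (2.55 ± 0.37, adjusted p = 0.00474). Tmem173 and Irf7 were thus at the control level or just above it in replicate 2. The gene that fell was Ifngr1, the ligand-binding chain of the interferon-γ receptor, which read 119 and 127 FPKM against 56.1, 18.8 and 68.0 (-0.98 ± 0.12, adjusted p = 0.00282) and was low in all 3 libraries.

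Of 47 effectors tested, 38 rose and 0 fell, with a median of 1.44, and limma called 0 of them with all libraries (13 higher at an unadjusted p under 0.05). Promoters of 3 of these effectors are printed because their genes rose and because they hold 2 copies of GAAA separated by NN, the core of the interferon-stimulated response element. They run from 250 bases before to 50 bases after the start of the gene in RefSeq on GRCm38.p6, with the motif in capitals.
Irgm1, chr11:48871371-48871670, minus strand: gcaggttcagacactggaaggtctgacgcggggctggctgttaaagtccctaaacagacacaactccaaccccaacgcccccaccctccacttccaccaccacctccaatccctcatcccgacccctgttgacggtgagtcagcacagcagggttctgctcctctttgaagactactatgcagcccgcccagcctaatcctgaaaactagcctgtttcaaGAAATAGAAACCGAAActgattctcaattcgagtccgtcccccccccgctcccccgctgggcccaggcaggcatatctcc
Bst2, chr8:71537423-71537722, minus strand: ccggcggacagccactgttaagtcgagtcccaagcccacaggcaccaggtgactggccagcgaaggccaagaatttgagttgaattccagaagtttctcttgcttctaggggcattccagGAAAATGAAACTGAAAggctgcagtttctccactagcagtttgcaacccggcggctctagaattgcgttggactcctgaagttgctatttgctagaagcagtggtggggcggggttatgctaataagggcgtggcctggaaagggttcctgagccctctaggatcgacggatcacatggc
Oas3, chr5:120777610-120777909, minus strand: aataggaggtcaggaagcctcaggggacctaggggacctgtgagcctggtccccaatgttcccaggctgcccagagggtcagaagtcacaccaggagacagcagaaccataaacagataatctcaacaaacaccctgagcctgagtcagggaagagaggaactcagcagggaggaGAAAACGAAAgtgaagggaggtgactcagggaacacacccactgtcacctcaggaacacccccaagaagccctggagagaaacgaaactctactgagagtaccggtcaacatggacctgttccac

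In Irgm1 and Bst2 a pair of matches overlapped. Irgm1, a GTPase that guards vacuoles against bacteria, read 15.4 and 16.3 FPKM in the controls and 42.1, 14.9 and 47.5 in ΔNp63-labelled replicates 1, 2 and 3 (1.44 ± 0.27, adjusted p = 0.0118). Bst2, or tetherin, which holds budding virus at the cell surface, read 92.9 and 97.1 FPKM against 370, 71.1 and 337 (1.88 ± 0.36, adjusted p = 0.013). Oas3, which makes the 2-5A signal that activates RNase L, read 3.46 and 4.22 FPKM against 11.8, 4.10 and 13.2 (1.49 ± 0.31, adjusted p = 0.0171). Replicate 2 lay below both controls in Irgm1 and Bst2 and between them in Oas3. All 3 genes missed the threshold when either control, replicate 1 or replicate 3 was left out as well. The motif, searched on both strands, was present in 17 of the 29 effectors that have a single promoter in RefSeq (58.6%) and in 235 of 7059 tested genes with such a promoter (3.33%). It was present in 4 of 7 sensors, in 3 of 22 chemokine ligands (13.6%) and in 0 of 27 replication genes. A match describes letters in a window and does not show that a factor bound there.

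Xaf1 and Gbp1 were among the interferon-responsive genes in which replicate 2 also lay above both controls. Xaf1, an interferon-induced antagonist of caspase inhibitors, read 4.74 and 4.33 FPKM in the controls and 82.0, 32.9 and 108 in the ΔNp63-labelled libraries (4.11 ± 0.64, adjusted p = 0.00635). Gbp1, a guanylate-binding GTPase, read 0.141 and 0.0526 FPKM against 14.8, 3.87 and 16.6 (3.93 ± 0.75, adjusted p = 0.0125). With all libraries neither passed (adjusted p = 0.164 for Xaf1 and 0.222 for Gbp1). In the ΔNp73-labelled libraries Xaf1 read 17.7, 19.7 and 79.5 FPKM, all above both controls, and Gbp1 read 0.238, 0.292 and 5.66 FPKM. The call of Gbp1 was lost when any control, replicate 1 or replicate 3 was left out as well.

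Antigen presentation genes rose as well. MHC class I displays peptides from inside the cell, cut by the immunoproteasome and pumped by TAP, to CD8 T cells. Of 20 heavy chain genes tested, 15 rose and 0 fell (median 1.43), and of 15 genes for peptide cutting and loading 11 rose and 0 fell (median 0.61). H2-D1, a classical heavy chain, read 166 and 187 FPKM in the controls and 491, 147 and 575 in ΔNp63-labelled replicates 1, 2 and 3 (1.59 ± 0.18, adjusted p = 0.00237). Psmb9, an immunoproteasome subunit, read 58.8 and 50.3 FPKM against 96.4, 55.6 and 101 (0.85 ± 0.12, adjusted p = 0.00425). Nlrc5, the master regulator of class I genes, read 3.17 and 3.00 FPKM against 6.82, 1.39 and 6.97 (0.95 ± 0.15, adjusted p = 0.00662). Replicate 2 was within or below the controls in these 3 genes. H2-T3, or TL antigen, stood out within the list: it read 14.8, 5.33 and 16.9 FPKM in the ΔNp63-labelled libraries, 5.03 and 0.334 in the controls, and between 0.262 and 0.751 in the ΔNp73-labelled ones. Replicate 2 was thus barely above control 1. The call of H2-T3 was lost with a pseudocount of 0.1, and when replicate 1 or replicate 3 was left out as well. Heavy chain genes are near copies of each other, so single values are uncertain.

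MHC class II, which displays peptides from outside the cell and is made by macrophages, B cells, dendritic cells and epithelium, rose in part. Of 13 genes tested 8 rose and 0 fell, with a median of 0.74, and replicate 2 was below both controls in 11 of the 13, with a median of -0.97. H2-Ab1, a class II chain, read 300 and 306 FPKM in the controls and 513, 130 and 536 in the 3 libraries (0.79 ± 0.11, adjusted p = 0.00459).

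Chemokines that call monocytes were among the genes with the largest rises in replicates 1 and 3, and replicate 2 had raised values of several of them. Of 32 ligands tested 20 rose and 0 fell, with a median of 1.5. All 3 ΔNp63-labelled libraries lay above both controls in 15 of them, where 12.6% of all genes did so. Ccl2, the main ligand of CCR2, read 1.76 and 2.83 FPKM in the controls and 123, 11.7 and 113 in ΔNp63-labelled replicates 1, 2 and 3 (5.19 ± 0.39, adjusted p = 0.00134). Ccl7, which shares that receptor, read 1.12 and 1.82 FPKM against 82.0, 4.08 and 84.9 (5.11 ± 0.48, adjusted p = 0.00183). Cxcl13, which draws B cells, read 3.60 and 5.31 FPKM against 79.7, 7.57 and 105 (4.10 ± 0.48, adjusted p = 0.00246). Ccl8 read 30.5 and 35.8 FPKM against 230, 81.8 and 247 (2.81 ± 0.23, adjusted p = 0.00171). In all 4 genes replicate 2 was above both controls and below replicates 1 and 3. Over the 32 ligands, however, it lay above both controls in 16, between them in 3 and below both in 13, with a median of 0.15. The summed level of the ligands was 936 and 961 FPKM in the controls and 2666, 417 and 2438 in ΔNp63-labelled replicates 1, 2 and 3. In the ΔNp73-labelled libraries it was also above both controls, at 2482, 2360 and 1666 FPKM. With all libraries limma called 0 of the 32 ligands, with 13 higher at an unadjusted p under 0.05.

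The receptors were less uniform. Of 17 chemokine receptors 8 rose and 0 fell, and replicate 2 lay below both controls in 12 of the 17. With all libraries limma called 0 of the 17, with 4 higher at an unadjusted p under 0.05. Ccr2, the receptor of Ccl2 and Ccl7 on inflammatory monocytes, read 4.01 and 3.81 FPKM in the controls and 27.6, 3.63 and 23.3 in the 3 libraries (2.43 ± 0.13, adjusted p = 0.000491). So replicate 2 had raised values of the ligands Ccl2 and Ccl7 beside a value of their receptor Ccr2 just under both controls.

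Macrophage and monocyte markers moved with these genes. Of 39 markers tested from a list of 42, 32 rose and 0 fell (median 1.39), and all 3 ΔNp63-labelled libraries lay above both controls in 21 of 39 tested with all libraries, against 12.6% of all genes. Their summed level was 1992 and 2369 FPKM in the controls and 4179, 1477 and 4116 in ΔNp63-labelled replicates 1, 2 and 3. The ΔNp73-labelled libraries were also above both controls, at 5143, 5108 and 4079 FPKM. Fcgr1, the high-affinity IgG receptor, read 1.25 and 1.22 FPKM in the controls and 30.3, 4.18 and 23.3 in the 3 libraries (3.63 ± 0.35, adjusted p = 0.00186). Msr1, a scavenger receptor, read 0.991 and 0.887 FPKM against 23, 1.86 and 17.3 (3.43 ± 0.34, adjusted p = 0.0019). Csf1r, the receptor for the macrophage growth factor CSF1, read 9.46 and 8.99 FPKM against 29.4, 11.9 and 24.6 (1.45 ± 0.13, adjusted p = 0.00176). Replicate 2 exceeded both controls in all 3 genes, by less than replicates 1 and 3 did. Clec7a, the β-glucan receptor dectin-1, was the closest to a call with all libraries, at 14.6 and 16.1 FPKM in the controls against 39.3, 33.4 and 36.3 (adjusted p = 0.0669). The part of macrophage number in the interferon, chemokine and complement results was not tested.

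Complement genes, many of which macrophages make, rose in parallel. Of 13 components and regulators 12 rose and 0 fell (median 1.61), and of 8 receptors 4 rose. Cfb, the protease precursor of the alternative pathway, read 3.46 and 4.0 FPKM in the controls and 38.3, 6.17 and 36.5 in ΔNp63-labelled replicates 1, 2 and 3 (3.02 ± 0.41, adjusted p = 0.00412). C1qa, a chain of the recognition protein of the classical pathway, read 46.7 and 49.5 FPKM against 152, 55.7 and 147 (1.61 ± 0.14, adjusted p = 0.00176). C3ar1, the receptor for the fragment C3a, read 2.07 and 2.25 FPKM against 23.7, 8.20 and 23.6 (2.96 ± 0.47, adjusted p = 0.0064). All 3 libraries were above both controls in each of these genes, and in 11 of the 21 complement genes together, against 12.6% of all genes. With all libraries limma called 0 of the 21, with 11 higher at an unadjusted p under 0.05. The summed level of the list was 355 and 477 FPKM in the controls and 1228, 377 and 1140 in ΔNp63-labelled replicates 1, 2 and 3. The ΔNp73-labelled libraries were also above both controls, at 1279, 1083 and 889 FPKM.

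The 4 genes that follow had some of the largest rises among those above both controls in all 3 ΔNp63-labelled libraries, and were chosen for that. Spp1, osteopontin, read 2.65 and 2.08 FPKM in the controls and 98.6, 5.64 and 58.7 in the 3 ΔNp63-labelled libraries (4.52 ± 0.23, adjusted p = 0.000479). Timp1, an inhibitor of matrix metalloproteinases, read 4.31 and 3.64 FPKM against 87.0, 9.10 and 60.5 (3.89 ± 0.21, adjusted p = 0.000491). Saa3, an acute-phase protein, read 2.41 and 3.63 FPKM against 107, 9.95 and 84.4 (4.60 ± 0.56, adjusted p = 0.00277). Mt1, a metallothionein that binds zinc, read 47.5 and 69.5 FPKM against 931, 194 and 505 (3.55 ± 0.63, adjusted p = 0.0101). In these 4 genes every ΔNp63-labelled library was above both controls and replicate 2 was the lowest of the 3. The call of Mt1 was lost without control 1 or without replicate 1.

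**Figure D3:**
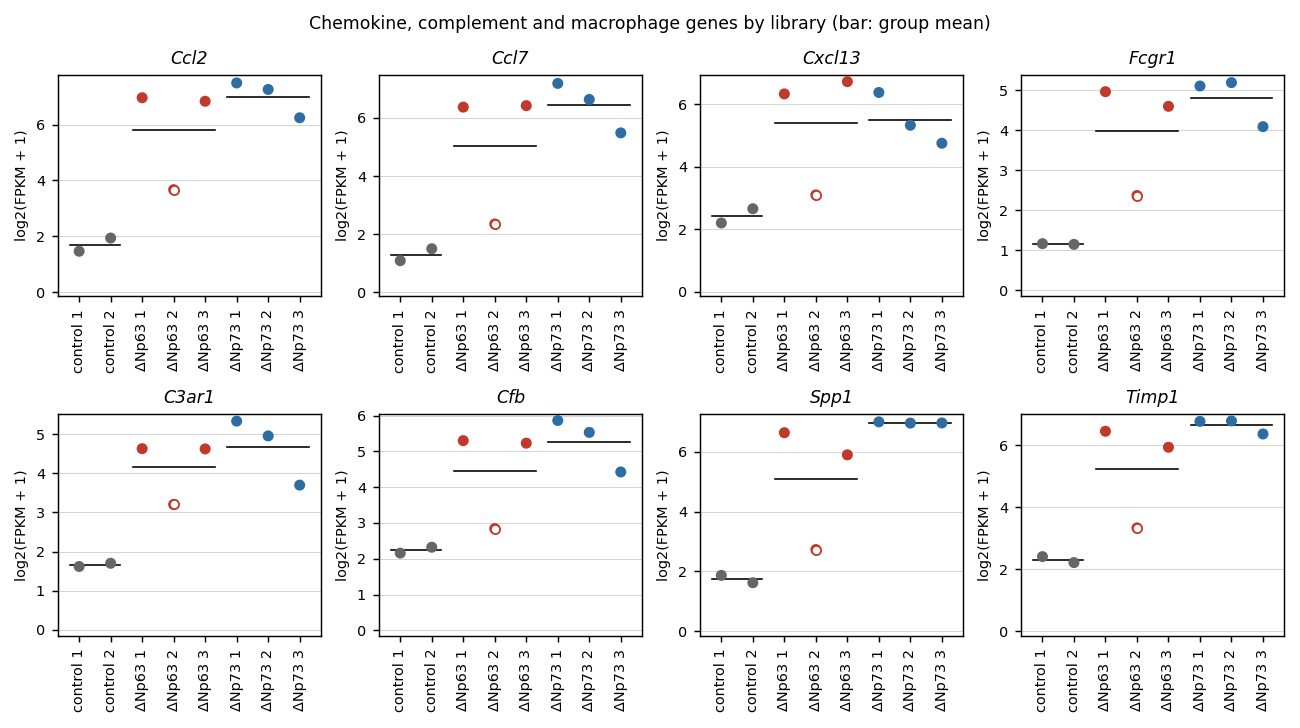
FPKM per library on the log2(FPKM + 1) scale for 8 chemokine, macrophage, complement and secreted protein genes in controls, ΔNp63-labelled and ΔNp73-labelled libraries, with a bar at each group mean and ΔNp63-labelled replicate 2 as an open circle. Replicate 2 sits above both controls in every panel and below replicates 1 and 3.

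Genes of the inflammasome, which matures interleukin 1, rose in smaller number. Of 24 tested without replicate 2, 11 rose and 0 fell. Il1b itself read 0.834 and 0.894 FPKM in the controls and 7.28, 3.36 and 9.22 in ΔNp63-labelled replicates 1, 2 and 3 (2.30 ± 0.27, adjusted p = 0.00246). Il33, an alarm signal of stromal cells, read 3.52 and 3.05 FPKM against 24, 5.37 and 14.5 (2.20 ± 0.23, adjusted p = 0.00211). Both cytokine genes were above the controls in all 3 libraries. The sensor Aim2, which binds DNA in the cytosol, read 3.92 and 3.67 FPKM against 14.4, 1.54 and 10.2 (1.45 ± 0.16, adjusted p = 0.00217). Casp1, the protease of the complex, read 6.86 and 5.73 FPKM against 22.4, 3.98 and 16.0 (1.45 ± 0.16, adjusted p = 0.00234). In Aim2 and Casp1 replicate 2 lay below both controls.

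The leukotriene pathway was uneven along its length. Leukotrienes are made from arachidonic acid, which cytosolic phospholipase A2 releases, and which 5-lipoxygenase oxidises with the help of the Alox5ap protein. Of 26 leukotriene and prostaglandin genes tested 10 rose and 0 fell, and Alox5ap, described above, was the one called with all libraries. Pla2g4a, the phospholipase, read 2.92 and 2.71 FPKM in the controls and 6.80, 2.28 and 6.65 in the 3 libraries (1.02 ± 0.14, adjusted p = 0.00402). Alox5, the lipoxygenase itself, read 0.761 and 1.28 FPKM against 1.16, 0.412 and 1.59 and did not pass (adjusted p = 0.423). Cysltr1, a receptor for the cysteinyl leukotrienes, read 0.613 and 0.435 FPKM against 3.56, 1.81 and 3.00 (1.49 ± 0.15, adjusted p = 0.00209). The helper protein and this receptor were therefore above the controls in all 3 libraries, and the enzyme between them was low everywhere. Of 7 subunits of the phagocyte oxidase, which makes superoxide, 5 rose. Ncf4 read 5.53 and 8.29 FPKM in the controls and 27.7, 19.6 and 27.3 in the 3 libraries (1.87 ± 0.23, adjusted p = 0.00282).

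Genes of cell division were lower in replicates 1 and 3, and replicate 2 split from them. DNA replication genes are switched on by E2F factors at the start of S phase, and mitosis genes later, through the DREAM and MuvB complexes at promoters with a CHR element. Of 103 cell cycle genes tested without replicate 2, 90 fell and 1 rose (87.4% and 0.971%, against 10.8% and 11.7% of all genes), with a median of -1.45. With all libraries limma called 0 of the 104 tested, with 27 lower and 2 higher at an unadjusted p under 0.05. The summed level was 4371 and 4130 FPKM in the controls and 1423, 4320 and 1530 in ΔNp63-labelled replicates 1, 2 and 3. It was 1413, 1592 and 2056 FPKM in the ΔNp73-labelled libraries, so the lower level was not particular to the ΔNp63-labelled group.

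Replication and mitosis differed in how replicate 2 behaved. Of 39 replication genes 38 fell, with a median of -1.20, and replicate 2 lay above both controls in 32 of them and below both in 6. Of 38 mitosis genes all 38 fell, with a median of -1.93, and replicate 2 lay above both controls in 22 and below both in 15. The median of replicate 2 was 0.51 for replication and 0.17 for mitosis. Prim1, the primase that starts new DNA strands, read 46.5 and 43.2 FPKM in the controls and 11.7, 64.4 and 11.3 in ΔNp63-labelled replicates 1, 2 and 3 (-1.87 ± 0.15, adjusted p = 0.00151). Rrm2, the small subunit of ribonucleotide reductase, read 208 and 217 FPKM against 32.7, 132 and 35.1 (-2.61 ± 0.23, adjusted p = 0.00176). Replicate 2 exceeded both controls in Prim1 and lay below both in Rrm2. Mki67, the proliferation antigen Ki-67, read 104 and 88.3 FPKM against 14.6, 43.8 and 14 (-2.67 ± 0.31, adjusted p = 0.00256). Top2a, which untangles chromosomes, read 173 and 149 FPKM against 23, 139 and 25.0 (-2.69 ± 0.26, adjusted p = 0.0019). In Mki67 and Top2a replicate 2 lay below both controls and above replicates 1 and 3.

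Promoters of 3 mitosis genes are printed because the genes fell and their promoters hold TTTGAA, the core of the CHR element, given in capitals on either strand (in Kif11 it reads TTCAAA). The window, source and build are those of the interferon promoters.
Cenpf, chr1:189688037-189688336, minus strand: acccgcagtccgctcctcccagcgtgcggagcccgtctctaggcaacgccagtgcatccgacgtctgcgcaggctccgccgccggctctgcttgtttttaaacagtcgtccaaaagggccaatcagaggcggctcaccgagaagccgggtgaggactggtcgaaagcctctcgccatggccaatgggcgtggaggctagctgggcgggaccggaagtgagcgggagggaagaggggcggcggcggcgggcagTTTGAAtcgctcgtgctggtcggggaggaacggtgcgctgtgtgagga
Ccnb2, chr9:70421505-70421804, minus strand: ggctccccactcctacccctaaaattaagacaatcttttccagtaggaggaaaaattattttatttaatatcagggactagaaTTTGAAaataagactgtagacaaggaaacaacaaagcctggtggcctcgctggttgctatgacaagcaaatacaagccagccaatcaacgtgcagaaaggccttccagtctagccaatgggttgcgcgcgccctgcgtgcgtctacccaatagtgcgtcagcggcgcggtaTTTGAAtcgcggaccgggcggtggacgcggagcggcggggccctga
Kif11, chr19:37376132-37376431, plus strand: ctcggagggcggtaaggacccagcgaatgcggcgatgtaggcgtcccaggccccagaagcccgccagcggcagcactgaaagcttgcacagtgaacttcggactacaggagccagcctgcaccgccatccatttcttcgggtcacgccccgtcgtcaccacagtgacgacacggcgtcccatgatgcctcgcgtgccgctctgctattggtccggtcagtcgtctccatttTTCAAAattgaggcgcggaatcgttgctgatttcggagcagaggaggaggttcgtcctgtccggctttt

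Cenpf, a kinetochore protein, read 15.1 and 13.6 FPKM in the controls and 1.65, 9.56 and 1.65 in ΔNp63-labelled replicates 1, 2 and 3 (-2.53 ± 0.22, adjusted p = 0.00176). Ccnb2, a cyclin of mitotic entry, read 69.3 and 64.1 FPKM against 11.9, 61.9 and 10.6 (-2.47 ± 0.22, adjusted p = 0.00176). Kif11, the motor that parts the spindle poles, read 58.8 and 54.0 FPKM against 7.43, 73.4 and 8.59 (-2.67 ± 0.24, adjusted p = 0.00177). Replicate 2 was below both controls in Cenpf and Ccnb2 and above both in Kif11. On either strand TTTGAA was present in 18 of 29 mitosis genes with a single RefSeq promoter (62.1%), in 3 of 27 replication genes (11.1%) and in 856 of 7059 tested genes (12.1%). CCAAT, the NF-Y motif, was present in 19 of the 29 mitosis genes (65.5%), in 17 of the 27 replication genes (63%) and in 2813 of 7059 (39.8%).

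Regulators of the entry into S phase were mixed. Of 20 G1 regulators 12 fell and 1 rose (60% and 5%, against 10.8% and 11.7% of all genes). Ccnd3, the D-type cyclin of thymocytes, read 337 and 312 FPKM in the controls and 105, 87.4 and 134 in the 3 libraries (-1.44 ± 0.23, adjusted p = 0.00704). Ccnd1, the D-type cyclin of many other cell types, was the one that rose, from 4.48 and 3.82 FPKM to 8.11, 12.8 and 8.34 (0.84 ± 0.15, adjusted p = 0.00963). For both D-type cyclins replicate 2 lay beyond replicates 1 and 3 in their direction, but both calls were lost without replicate 1, and without control 1 (Ccnd3) or control 2 (Ccnd1). Ccne2, the cyclin E of S phase entry, read 18.3 and 19.5 FPKM against 3.23, 38.9 and 3.45 (-2.20 ± 0.32, adjusted p = 0.00486), with replicate 2 above both controls.

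Histone genes fell with replication. Replication-dependent histones are made only in S phase. Of 61 tested 50 fell and 0 rose, with a median of -2.06 in replicates 1 and 3 and of 0.37 in replicate 2, which lay above both controls in 41 of the 61. Hist1h3c read 34.2 and 33.3 FPKM in the controls and 4.56, 63.6 and 4.08 in ΔNp63-labelled replicates 1, 2 and 3 (-2.71 ± 0.15, adjusted p = 0.000491). These genes are near copies of each other and their mRNA lacks a poly(A) tail, so single values are uncertain. Their summed level was 11044 and 9123 FPKM in the controls and 3174, 12744 and 3110 in ΔNp63-labelled replicates 1, 2 and 3. In the ΔNp73-labelled libraries it was also below both controls, at 2154, 1735 and 3472 FPKM. Of 10 variant and linker histones 6 fell. H2afx, whose phosphorylated form marks DNA breaks, read 320 and 256 FPKM against 64.1, 142 and 61.3 (-2.17 ± 0.26, adjusted p = 0.00265), with all 3 libraries below both controls.

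**Figure D4:**
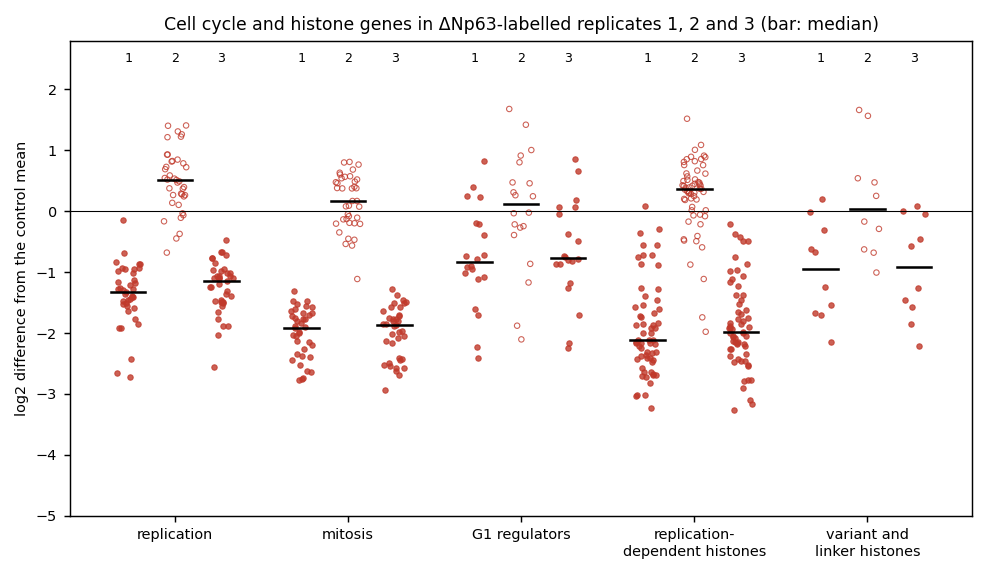
Each point is a gene, and its height is the log2(FPKM + 1) difference of 1 ΔNp63-labelled library from the control mean; bars mark medians. Replication, mitosis and replication-dependent histone genes lie mostly below 0 in replicates 1 and 3, and their medians in replicate 2 are 0.51, 0.17 and 0.37.

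Thymocyte genes, which mark the lineage of the tumour cells, were mostly lower, but few passed and those that did went both ways. Of 56 tested 5 fell and 8 rose without replicate 2 (8.93% and 14.3%, against 10.8% and 11.7% of all genes), with a median of -0.31. With all libraries 48 of the 56 had a log2 difference on the lower side. All 3 ΔNp63-labelled libraries lay below both controls in 30 of the 56, where 17.7% of all genes did so, and replicate 2 lay below both controls in 50. The summed level was 10154 and 10772 FPKM in the controls and 6806, 5057 and 8655 in replicates 1, 2 and 3. None of 8 genes of the antigen receptor complex passed by limma (0 at an unadjusted p under 0.05 with all libraries). Cd4, the co-receptor of helper T cells, read 293 and 361 FPKM in the controls and 224, 85.7 and 264 in the 3 libraries and did not pass (adjusted p = 0.156).

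Of 19 transcription factors of the T cell lineage 3 fell and 3 rose (15.8% each, beside 10.8% and 11.7% of all genes), and those that fell were Tcf7, Bcl11b and Ikzf1. Tcf7, which starts the T cell programme, read 1177 and 1158 FPKM in the controls and 468, 662 and 671 in the ΔNp63-labelled libraries (-1.06 ± 0.25, adjusted p = 0.0262). Bcl11b, which fixes T cell commitment, read 87.4 and 90.7 FPKM against 42.8, 33.5 and 58.1 (-0.82 ± 0.19, adjusted p = 0.0255). Ikzf1 read 93.4 and 94.3 FPKM against 57, 57.7 and 63 (-0.64 ± 0.15, adjusted p = 0.0267). In these 3 genes all ΔNp63-labelled libraries, replicate 2 included, were below both controls, but the calls were lost when either control or replicate 1 was left out as well. Cd7, a surface protein of early T and natural killer cells, rose from 23.6 and 21.1 FPKM to 67.9 and 59.5 in replicates 1 and 3 (1.47 ± 0.11, adjusted p = 0.00154) and read 3.16 in replicate 2. Id2, an inhibitor of E proteins, read 34.8 and 38.3 FPKM against 75.3, 15 and 102 (1.24 ± 0.16, adjusted p = 0.00363). Of 22 Notch pathway genes 5 rose and 1 fell (22.7% and 4.55%, beside 11.7% and 10.8% of all genes). Lfng, the glycosyltransferase that tunes Notch, read 8.31 and 7.77 FPKM against 20.4, 9.23 and 22.1 (1.30 ± 0.10, adjusted p = 0.00151), and Notch1 read 14.6 and 15.1 FPKM against 9.24, 3.76 and 11.5 (-0.49 ± 0.13, adjusted p = 0.0361). The call of Notch1 was lost without either control or replicate 1.

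Targets of the p53 family, which p63 shares in part, did not move as a group. Of 32 tested without replicate 2, 4 rose and 3 fell, shares of the size seen over all genes, and the median was 0.10. Those that rose included Dram1, a regulator of autophagy, at 7.81 and 7.38 FPKM in the controls and 22.6, 5.28 and 19.6 in the 3 libraries (1.36 ± 0.19, adjusted p = 0.00433). Those that fell included Ckap2 and Gtse1, which are also genes of dividing cells. Gtse1 read 9.93 and 8.30 FPKM against 2.13, 15.3 and 1.83 (-1.76 ± 0.17, adjusted p = 0.00186). Cdkn1a, which encodes p21, read 12.7 and 10.5 FPKM against 15.7, 7.17 and 20.5 (adjusted p = 0.401), and Mdm2 read 22.1 and 23.8 FPKM against 19.5, 12.7 and 22.3 (adjusted p = 0.407).

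Apoptosis genes were split in the same way, with 7 of 37 up and 4 down (18.9% and 10.8%, beside 11.7% and 10.8% of all genes). Casp8, the initiator of the death receptor route, read 8.06 and 7.28 FPKM in the controls and 10.5, 12.2 and 10.4 in the 3 libraries (0.40 ± 0.10, adjusted p = 0.028). Bcl2l1, the survival factor BCL-XL of thymocytes, read 52.7 and 50.9 FPKM against 34.2, 17.7 and 37.6 (-0.52 ± 0.13, adjusted p = 0.0338). Both genes had the same direction in every ΔNp63-labelled library, but their calls were lost when any control, replicate 1 or replicate 3 was left out as well. The secretion genes of senescent cells were another list in which replicate 2 took part: 12 of 22 rose and 2 fell, and its own median was 0.61. Mmp3, a matrix protease, read 0.541 and 0.847 FPKM in the controls and 6.84, 1.69 and 5.78 in the 3 libraries (2.11 ± 0.18, adjusted p = 0.00173). Mmp14, a membrane-bound matrix protease, read 13.0 and 11.7 FPKM against 25.1, 51.2 and 23.1 (0.91 ± 0.17, adjusted p = 0.0113). Iapp, the hormone amylin, read 4.92 and 3.41 FPKM against 11.2, 7.34 and 9.17 (1.12 ± 0.20, adjusted p = 0.0104). The calls of Mmp14 and Iapp were lost without control 2 or without replicate 1, and that of Mmp14 also without control 1.

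Epithelial genes that p63 is known to control in skin were not lower in replicates 1 and 3. Of 22 epithelial and p63-linked genes 7 rose and 0 fell (median 0.43), and replicate 2 was below both controls in 21 of them (median -1.01). Cdh1, E-cadherin, read 11.0 and 11.3 FPKM in the controls and 21.3, 5.63 and 22.4 in ΔNp63-labelled replicates 1, 2 and 3 (0.91 ± 0.11, adjusted p = 0.00265). Itga6, an integrin of basal epithelial cells, read 18.8 and 19.8 FPKM against 28.5, 10.6 and 33.1 (0.64 ± 0.12, adjusted p = 0.0121), a call lost without either control or replicate 3. Replicate 2 also nearly lacked transcripts of cortical thymic epithelium. Prss16, a thymus-specific protease, read 217 and 190 FPKM in the controls, 114 and 233 in replicates 1 and 3, and 1.54 in replicate 2. The summed level of 16 thymic epithelium markers was 1895 and 1854 FPKM in the controls, 1484 and 2143 in replicates 1 and 3, and 219.6 in replicate 2, and the part of epithelium content in replicate 2's low Trp63 was not tested.

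Fibroblast and matrix genes were higher in replicates 1 and 3. Replicate 2 lay above both controls in 17 of 37, between them in 4 and below both in 16, with a median of -0.02. Its median was 0.22 over the 14 collagens and -0.27 over the 23 other members. Of 37 tested 21 rose and 1 fell (median 0.81). All 3 ΔNp63-labelled libraries were above both controls in 16 of them, where 12.6% of all genes were. Col3a1 read 15.1 and 14.9 FPKM in the controls and 65.5, 26.8 and 47.5 in the 3 libraries (1.83 ± 0.25, adjusted p = 0.00432), and Col1a1 read 4.59 and 4.29 FPKM against 22.8, 9.30 and 15.1 (1.85 ± 0.26, adjusted p = 0.00423). Both fibrillar collagens were above the controls in every ΔNp63-labelled library. The summed level of the list did not separate the groups, at 1726 and 1933 FPKM in the controls and 1696, 1068 and 1741 in the 3 libraries. Of the markers of other cell types, 6 of 17 B cell genes (35.3%), 5 of 14 cytotoxic cell genes (35.7%) and 5 of 16 neutrophil genes (31.2%) rose. For endothelial genes it was 6 of 19 (31.6%) and for fat cell genes 0 of 20, against 11.7% of all genes. Lcn2, a neutrophil granule protein, read 5.88 and 11.2 FPKM in the controls and 128, 6.47 and 72.6 in the 3 libraries (3.41 ± 0.50, adjusted p = 0.00504), with replicate 2 between the controls.

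**Figure D5:**
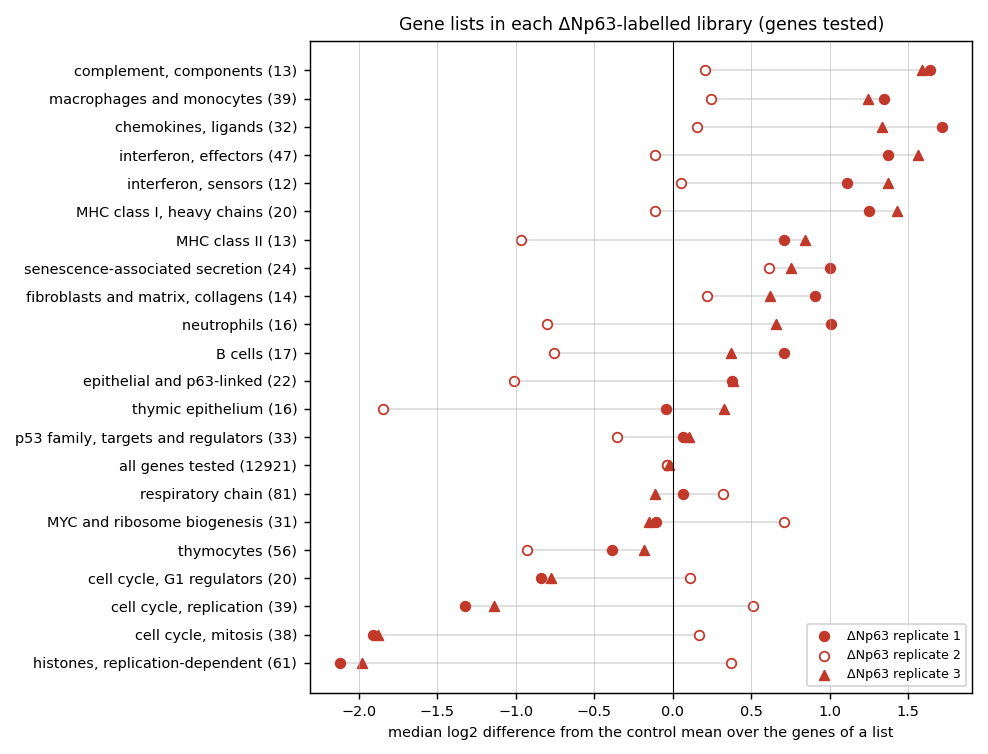
Median log2(FPKM + 1) difference from the control mean over the tested members of each gene list, for ΔNp63-labelled replicate 1 (filled circle), 2 (open circle) and 3 (triangle). Replicates 1 and 3 lie together in most lists, with interferon medians of 1.17 and 1.4 against -0.18 in replicate 2, and cell cycle medians of -1.48 and -1.42 against 0.37.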

How the data were processed

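RNA from 8 thymic lymphomas was sequenced after preparation with an Illumina TruSeq kit, per the labels' protocols. The authors deposited 1 table of FPKM values per RefSeq transcript, quantile-normalised per the name of the table. TopHat2 2.0, Cufflinks 2.0 and the mouse build mm9 are named in the submitters' processing notes. Read counts were not used here, so no count test was made.

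The table held 16589 transcript entries for 13681 symbols. Where a symbol had several entries (2113 symbols), the entry with the highest mean was used. Another 35 symbols turned into dates by a spreadsheet were restored, and 770 entries kept an identifier for want of a symbol. Genes at 1 FPKM or more in 2 or more libraries were tested with limma 3.58.1 in R 4.3.3 on log2(FPKM + 1), with a mean per group over all 8 libraries (5 residual degrees of freedom) or without ΔNp63-labelled replicate 2 (7 libraries, 4 degrees of freedom). Adjusted p-values (Benjamini-Hochberg, all tested genes) under 0.05 counted as calls. The test was tried on simulated data.

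Members and gene lists were chosen with earlier results of these data known. The text names members of these lists, genes called with all libraries or between the deletion groups, and the genes with the largest changes; the neighbours of Psca and Trim12a were chosen after their values were seen. Promoters and gene order came from RefSeq on GRCm38.p6, not mm9. The alternatives tried are given in the closing section. Other small RNAs, gene models and antigen receptor segments were counted only. Some genes are not reported here.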

Additional observations from a re-analysis of the deposited data

Results flagged for a closer look

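The genes below were singled out because a test of the difference between the ΔNp73-labelled and ΔNp63-labelled groups, with limma and Benjamini-Hochberg adjustment, passed its threshold. Values are ΔNp73-labelled minus ΔNp63-labelled on the log2(FPKM + 1) scale. With all libraries, the genes higher in the ΔNp73-labelled group were Rnu12 (NR_004432) at 3.75, Trim12a at 3.56, Synpr at 3.56 and Extl1, a glycosyltransferase, at 1.32. Those lower in it were Snora65 (NR_002898) at -8.17, H2-T10 at -4.89 and Ugt8a at -2.74. Snora65 was listed at 0 in all 3 ΔNp73-labelled libraries, so its value depends on the pseudocount. Extl1 read 3.08 and 2.91 FPKM in the controls, 1.0, 0.667 and 0.868 in the ΔNp63-labelled libraries and 4.02, 3.30 and 3.47 in the ΔNp73-labelled ones.

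Without ΔNp63-labelled replicate 2, further genes passed. Higher in the ΔNp73-labelled group were Cd96 at 1.96, Mtap7 at 1.63, Lynx1 at 1.20 and Epb4.1l3, a membrane skeleton protein, at 0.85. Lower in it were Ly6k at -3.28, Psca at -2.85, the second H2-T10 entry (NR_046286) at -1.97, the non-coding transcript NR_045895 at -1.52, B2m at -1.40, 2310007L24Rik at -0.96, Xlr4b at -0.83 and Dtx1, a regulator of Notch signalling, at -0.79. Dtx1 read 4.28 and 4.71 FPKM in the controls, 7.64 and 7.33 in ΔNp63-labelled replicates 1 and 3 and between 3.86 and 3.93 in the ΔNp73-labelled libraries, while ΔNp63-labelled replicate 2 read 0.291. B2m, the light chain of MHC class I, read 3186 FPKM in both controls, 21769 in ΔNp63-labelled replicates 1 and 3 and 8241 in the ΔNp73-labelled libraries. In ΔNp63-labelled replicate 2 it read 1686 FPKM, below both controls. B2m held the same quantile rank in several libraries, so its values repeat exactly and its spread without replicate 2 is understated.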

How the results depend on the processing

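Replicate 2 was the choice that moved the counts most. With all libraries the count of called genes was 12, and it was between 9 and 12 with a pseudocount of 0.1 or 5, no filter, a filter at 5 FPKM, summed entries, rescaled libraries or no intensity trend. A model of the ΔNp63-labelled and control libraries only gave 5. Leaving out 1 library gave from 3 (without either control) to 2882 (without ΔNp63-labelled replicate 2); without ΔNp63-labelled replicate 1 or ΔNp73-labelled replicate 2 it gave 7. Without replicate 2, the same alternatives gave between 2430 and 3305 calls against 2882, and leaving out a further library gave 810 to 3312. For ΔNp73-labelled against ΔNp63-labelled libraries, leaving out 1 library gave 6 to 19 calls, 19 without ΔNp63-labelled replicate 2. The cause was not tested. Of the 166 genes followed singly and called without replicate 2, leaving out a further control or ΔNp63-labelled library lost 20 to 33, and the other alternatives lost at most 5. The median changed sign under some alternative in 18 of 42 gene lists with all libraries and in 8 of 42 without replicate 2, which did not include the interferon, MHC class I, complement, chemokine, macrophage, cell cycle, histone, thymocyte or fibroblast lists. Of the lists described, those with a sign change with all libraries were MHC class II, TRIM5-like, Notch, apoptosis, p53 family, thymic epithelium, epithelial, B cell, neutrophil, fat cell, immediate early, MYC, TCA cycle and respiratory chain, and those without replicate 2 were p53 family, thymic epithelium, TCA cycle and respiratory chain.

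Single genes that changed sign are given with their lowest and highest value over the libraries left out in turn: Cd7 from -0.56 to 1.47, Cdkn1a from -0.11 to 0.59, Alox5 from -0.20 to 0.24, Id2 from -0.10 to 1.24, Itga6 from -0.13 to 0.64, Dtx1 from -0.74 to 0.63, H2-Ab1 from -0.23 to 0.79, Epb4.1l3 from -0.23 to 0.13 and Trp63 from -0.40 to 0.80, all with replicate 2 in the model otherwise, and Prss16 from -0.83 to 0.20 and 2310007L24Rik from -0.18 to 0.0018 without it. Trp63 also became -0.017 with a pseudocount of 0.1 and -0.61 with summed entries, Alox5 became 0.0043 with a pseudocount of 5, and Trim12c became 0.053 with summed entries and 0.40 in the model without replicate 2. No paired analysis was possible because the labels give no replicate numbers. FPKM carry no depth, so counting error could not be separated from other spread.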

Other observations

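Several gene groups that are not part of the comparisons above are given as values. Over all genes, 11.7% rose and 10.8% fell without replicate 2. Of 31 genes of the MYC and ribosome biogenesis list 0 rose and 4 fell in ΔNp63-labelled replicates 1 and 3, while replicate 2 lay above both controls in 24 of them, with a median log2 difference of 0.71. Of 76 ribosomal protein genes 1 fell and 0 rose, with a median of 0.08, and of 81 respiratory chain genes 2 fell and 0 rose, with a median of -0.02. Replicate 2 lay above both controls in 54 of the 76 ribosomal protein genes and in 55 of the 81 respiratory chain genes. Of 25 genes of the TCA cycle limma called 0 without replicate 2, and with all libraries it also called 0, with 1 higher at an unadjusted p under 0.05. Of 24 glycolysis genes 1 rose and 3 fell. Of 21 immediate early genes 7 rose and 0 fell, with a median of 0.36 in replicates 1 and 3 together and of -0.55 in replicate 2.

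Of 12 genes that process microRNA, a function linked to p63, 2 fell (16.7%, against 10.8% of all genes) and 0 rose, with a median of -0.17. All 3 ΔNp63-labelled libraries lay below both controls in 3 of the 12, where 17.7% of all genes did so. Counts this small do not set the list apart from all genes. Lyve1, a marker of lymph vessels and of some resident macrophages, read 1.0 and 2.14 FPKM in the controls and 0.0666, 0.609 and 0.0568 in the 3 ΔNp63-labelled libraries (log2 difference -1.24 without replicate 2, adjusted p = 0.0141 by limma). Cd209a, a lectin of dendritic cells and monocytes, read 2.25 and 3.01 FPKM against 0.316, 0.335 and 0.318 (-1.46, adjusted p = 0.00976). Both fell while 32 of 39 macrophage markers rose, and each call was lost when ΔNp63-labelled replicate 1 was left out as well, as was that of Lyve1 without replicate 3 and that of Cd209a without control 2.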
